A study of Mus musculus with 21 samples.

Results

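Rnf112, Fam180a, Npr3 and Nnmt are 4 of the 34478 genes in the expression table of 6 primary murine pancreatic ductal adenocarcinoma (PDAC) cell lines, and they were selected on these same samples as genes with the largest gains in trametinib-resistant cells of all 6 lines. Of the 19300 genes that reached 10 normalized counts in 3 or more samples, 1736 genes (8.99%) were higher in the resistant than in the parental cells of every line. Ordered by mean log2 fold change, Rnf112 was number 3, Fam180a number 4, Npr3 number 5 and Nnmt number 9 of these. All 4 genes passed the filter on low counts, Rnf112 with no parental sample at or above 10. Since the parental and resistant samples chose the genes, every difference that involves those samples is given as a description without a test. This choice also favours parental and resistant values that do not overlap. The share of all tested genes without such overlap was not counted.

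The lines, numbered #3, #4, #6, #7, #9 and #10, share 1 genotype. It includes Ptf1awt/Cre, a Cre recombinase in the pancreatic Ptf1a locus, and Trp53loxP/loxP, which this Cre deletes. Each line was sequenced once per state: untreated parental cells (n = 6), resistant cells grown in trametinib, an inhibitor of the kinase MEK (MEKi), at 100 times their IC50 (n = 6), and resistant cells returned to drug-free medium for 5 passages (P5, n = 3, lines #3, #7 and #9) or 12 passages (P12, n = 6). For P5 of lines #7 and #9 one label field gives 12 passages and the sample name P5, and the sample name is followed here. Values are normalized counts, and differences are on the scale of log2(normalized count + 1), which understates the change of genes at low counts.

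The genes belong to unrelated families. Rnf112, also known as neurolastin, encodes a membrane-bound GTPase of the dynamin superfamily that also carries a RING finger, the domain typical of ubiquitin ligases, and is best known from brain. Fam180a encodes a small and little studied protein with a predicted signal peptide. Npr3 encodes the clearance receptor for natriuretic peptides, which binds the hormones and carries them into the cell for breakdown but lacks the guanylyl cyclase domain by which its relatives Npr1 and Npr2 make cyclic GMP (cGMP). Nnmt encodes nicotinamide N-methyltransferase, which moves a methyl group from S-adenosylmethionine to nicotinamide and thereby draws on both the NAD salvage pathway and the methyl supply of the cell. In tumours it is known from cancer-associated fibroblasts and from mesenchymal cancer cells.

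In the GENCODE M21 annotation of mouse build GRCm38 (mm10), all 4 genes lay on the minus strand of different chromosomes and overlapped no other gene. Rnf112 (ENSMUSG00000010086.17) spanned chr11:61448442-61454131 with 12 merged exons. Fam180a (ENSMUSG00000047420.8) spanned chr6:35312668-35326141 with 3 merged exons. Npr3 (ENSMUSG00000022206.7) spanned chr15:11839896-11907287 with 11 merged exons, and Nnmt (ENSMUSG00000032271.13) spanned chr9:48591877-48605153 with 4 merged exons.

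RefSeq promoter windows matched 2 of the 4 genes, Fam180a and Npr3, and are shown because both genes were higher in the resistant cells of every line while their upstream sequences differed in composition. Each is the 250 bases before the annotated start in GRCm38.p6, read 5′ to 3′ on the minus strand, chr6:35326142-35326391 for Fam180a and chr15:11907372-11907621 for Npr3, whose RefSeq start lies upstream of the GENCODE one. Capitals mark a match to TGANTCA, the motif bound by AP1, a family of transcription factors downstream of MAPK signaling.
Fam180a: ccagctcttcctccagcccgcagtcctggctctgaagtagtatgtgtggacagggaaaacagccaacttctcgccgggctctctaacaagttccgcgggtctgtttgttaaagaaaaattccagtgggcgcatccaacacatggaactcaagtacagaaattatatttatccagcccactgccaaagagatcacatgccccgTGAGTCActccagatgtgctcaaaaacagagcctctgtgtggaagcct
Npr3: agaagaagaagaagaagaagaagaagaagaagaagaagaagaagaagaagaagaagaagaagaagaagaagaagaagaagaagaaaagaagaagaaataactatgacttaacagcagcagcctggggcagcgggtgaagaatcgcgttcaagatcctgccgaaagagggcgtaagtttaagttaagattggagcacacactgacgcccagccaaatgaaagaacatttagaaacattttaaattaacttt
The Fam180a window held 1 AP1 match, TGAGTCA, at 48 to 42 bases before the start, and 6.75% of 32851 RefSeq windows of this length held this motif on either strand. The Npr3 window held none and began with a long repeat of aga units. Its GC content was 38.8% against 50.4% for Fam180a and a median of 52.4% over all windows. On either strand, neither window held the CRE motif TGACGTCA, which 1.55% of all windows of this length held. The ETS motif CCGGAAG, held by 6.91% of all windows, was also missing from both. So was the STAT motif TTCNNNGAA, held by 7.02%. The shorter RUNX motif TGTGGT (14.05% of all windows) was in neither of them. The same was true of the TEAD motif GGAATG, held by 12.6% of the windows. Neither held a TATA box, searched as TATAAA and found in 12.4%. A match to these letters is a description of the window and not a binding site.

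Rnf112 varied most between lines in its gain. It was at 0 in the parental cells of 5 lines and at 0.669 normalized counts in #10, which is under 3 reads. In resistant cells it reached 3994 normalized counts in line #4, 3770.4 in #3, 2249 in #10 and 1766 in #6, but 13.0 in #7 and 5.98 in #9. The 6 resistant values thus formed an upper group of 4 lines and a lower pair, and all 6 were above every parental value. Against a parental floor of 3 reads per library, the resistant level was at least 1450.2-fold higher in #4, 1269.5-fold in #3 and 469.6-fold in #6, but at least 5.59-fold in #7 and 1.51-fold in #9. The mean log2 gain was 8.61 (SE 1.77 from the fit of all 4 states, which does not pair samples of a line) with an SD of 4.16 over the 6 lines. With the line as a block the SE was 1.32.

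After withdrawal, Rnf112 was again at 0 in P12 cells of lines #7, #9 and #10. In #10 a count of 0 allows up to 0.11% of the resistant level, whereas in #7 and #9 the resistant level itself was so low that a count of 0 allows up to 23.5% and 61.7% of it. Lines #3 and #4 came down to 20.3 and 21.1 normalized counts, which was 0.537% and 0.53% of their resistant levels. Line #6 stood apart with 522 normalized counts, 29.6% of its resistant level. At P5 the gene was at 56.5 normalized counts in #3 and at 0 in #7 and #9.

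Fam180a was above 3 reads in the parental cells of 4 lines, at a low level. Parental values ran from 0.818 normalized counts in #10 and 1.23 in #6, both under 3 reads, to 51.7 in #9, with a median of 4.78. In resistant cells it stood at 12879 normalized counts in line #3, 8582.5 in #4, 4749 in #6, 998 in #9, 829 in #10 and 189 in #7. Parental and resistant values did not overlap. In the lines with a parental value above 3 reads, the resistant level was 2564-fold higher in #3, 1891-fold in #4, 30.8-fold in #7 and 19.3-fold in #9, so the line with the highest parental level had the smallest of these gains. The mean log2 gain was 8.42 (SE 1.36), with an SD of 3.16 over lines.

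In P12 cells Fam180a was at 1778 normalized counts in line #6, 356 in #3, 195 in #4, 108 in #9, 33.8 in #7 and 1.66 in #10. Lines #3, #4 and #6 still exceeded the lowest resistant sample, while #7 and #10 lay within the parental range. The upper end of that range, 51.7 normalized counts, was the parental value of #9. Line #7 was still above its own parental cells, at 33.8 against 6.15 normalized counts. In #10 the P12 and parental values were both under 3 reads. At P5 the level was 1123 normalized counts in #3, 97.5 in #9 and 29.0 in #7. The P5 and P12 levels of #7 and #9 were close to each other, and #3 was lower at P12.

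With a pseudocount of 1, Npr3 had the most even gain over the lines and the lowest median share kept after withdrawal. Its parental level was 176 normalized counts in line #9, 20.9 in #6, 6.35 in #4, 5.74 in #10, 2.02 in #3 and 1.54 in #7. In resistant cells it was 64679 normalized counts in #9, 15653 in #6, 8652 in #10, 1507 in #4, 456 in #7 and 309 in #3. The lines differed more in their resistant levels than in their gains, which ran from 6.68 on the log2 scale in #3 to 10.33 in #10. The mean log2 gain was 8.36 (SE 1.52) with an SD of 1.35, against SDs from 1.83 to 4.16 for the other 3 genes. The fit behind this SE does not pair samples of a line, and with the line as a block the SE was 0.674. Line #9, the highest in the parental state, was also the highest in the resistant state and at P5 and P12.

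In P12 cells Npr3 was at 327 normalized counts in line #9, 102 in #4, 37.0 in #6, 10.5 in #3, 3.33 in #10 and 3.07 in #7. The levels in 5 of 6 lines lay at or under the highest parental value, which was that of line #9. Against parental cells of the same line, however, P12 was higher in 5 of 6 lines, by up to 3.81 on the log2 scale in #4. It was lower in #10. In #3 and #7 the parental value was under 3 reads. Against resistant cells of the same line the P12 level was lower 2598-fold in #10, 423-fold in #6, 198-fold in #9, 29.3-fold in #3 and 14.8-fold in #4, while no fold is given for #7, where the P12 value corresponded to 3 reads. At P5 it was at 864 normalized counts in #9, 21.7 in #3 and 4.13 in #7.

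With a pseudocount of 1, Nnmt had the smallest mean gain of the 4 genes and the highest median share kept after withdrawal. Parental cells held 19.3 normalized counts in line #4, 7.88 in #6, 3.36 in #9, 1.62 in #10 and 0 in #3 and #7. Resistant cells held 1877 normalized counts in #4, 1776 in #10, 1592 in #6, 536 in #7, 520.3 in #3 and 114 in #9. The groups did not overlap, and line #9, which was highest for Npr3, was lowest for Nnmt. The resistant level was at least 231-fold higher in #7 and 175-fold in #3 against a floor of 3 parental reads, and 202-fold and 97.0-fold higher in #6 and #4. The mean log2 gain was 7.71 (SE 1.15), with an SD of 1.83 over lines.

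In P12 cells Nnmt stood at 782 normalized counts in line #6, 399 in #4, 190.1 in #3, 69.1 in #10 and 21.4 in #7, while #9 was at 3.09, next to its parental 3.36. Thus 5 of 6 lines were above every parental sample. At P5 the level was 299 normalized counts in #3, 56.8 in #7 and 15.8 in #9, and each of these lines was lower again at P12.

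**Figure D1:**
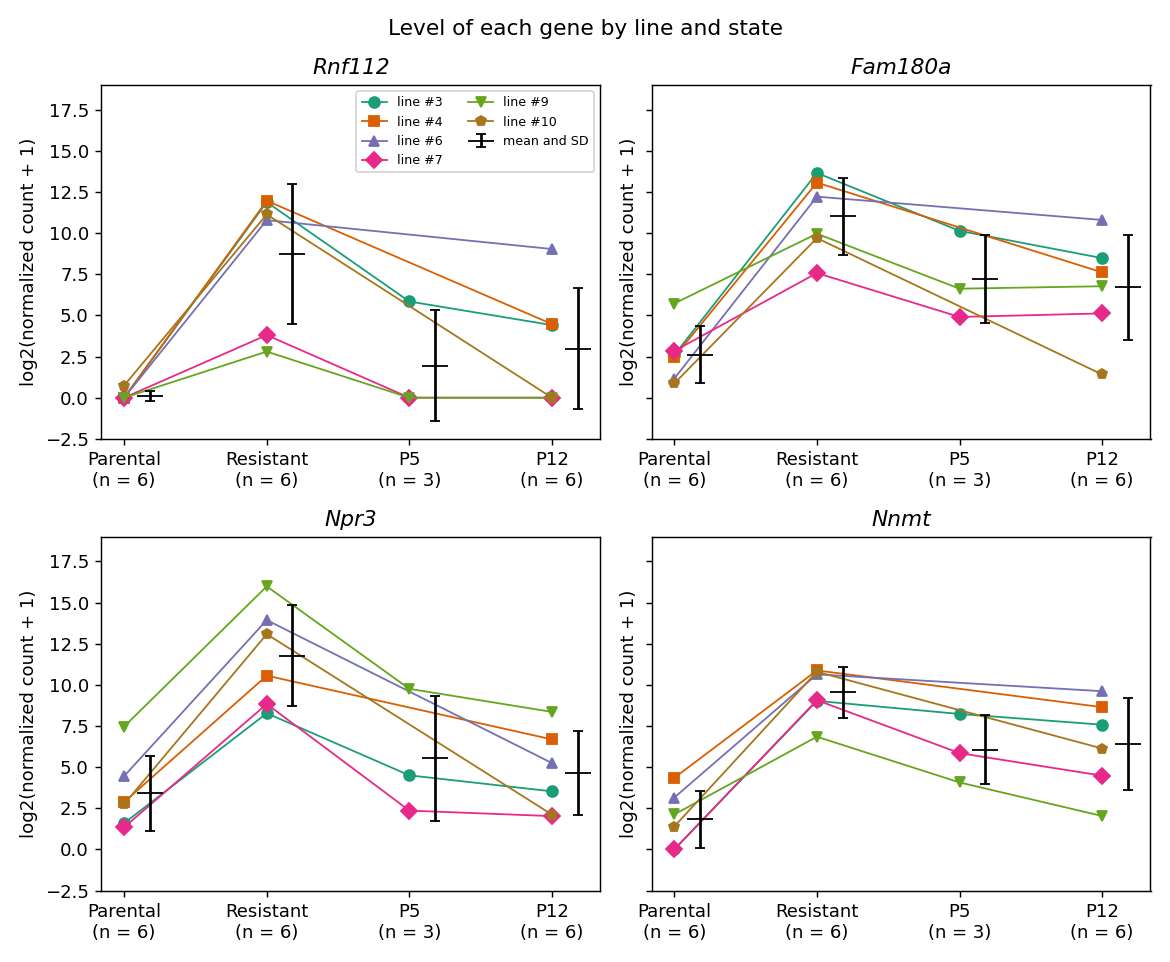
Levels of the 4 genes as log2(normalized count + 1) in parental, resistant, P5 and P12 cells, with 1 coloured line per cell line and the mean and SD of each state in black (n = 6, 6, 3 and 6). Resistant samples lie above all parental samples for each gene, which the choice of the genes favours. Line #6 stays high at P12 for Rnf112 (522 normalized counts) and Fam180a (1778) but not for Npr3 (37.0).

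The states were then compared by the share of the log2 gain that was still present without drug, which is the P12 (or P5) minus parental difference as a percent of the resistant minus parental difference of the same line. The median share kept at P12 was 58.1% for Nnmt, 48.4% for Fam180a, 18.6% for Rnf112 and 9.78% for Npr3. The median of Rnf112 rested on single lines, and was 0% without #3, #4 or #6 and 37.1% without #7, #9 or #10. Over the 6 lines the shares ranged from -1.95% to 86.3% for Nnmt, from 6.19% to 87.2% for Fam180a, from -7.11% to 83.7% for Rnf112 and from -6.18% to 49.6% for Npr3. The ranges overlapped widely, so the order of the medians describes these lines and does not separate the genes. P12 was lower than resistant in 6 of 6 lines for each gene, with mean log2 differences of -7.12 (SE 1.52) for Npr3, -5.74 (SE 1.77) for Rnf112, -4.33 (SE 1.36) for Fam180a and -3.13 (SE 1.15) for Nnmt. Against parental cells, P12 cells were higher by a mean log2 difference of 4.58 (SE 1.15) for Nnmt, 4.09 (SE 1.36) for Fam180a, 2.86 (SE 1.77) for Rnf112 and 1.24 (SE 1.52) for Npr3. With the line as a block the SE of either difference was 0.756 for Nnmt, 1.07 for Fam180a, 1.32 for Rnf112 and 0.674 for Npr3.

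The shares also differed by line. Line #6 kept 87.2% of the gain of Fam180a, 86.3% of Nnmt and 83.7% of Rnf112, but 8.36% of Npr3. Line #10 kept 50.4% of Nnmt and 6.19%, -6.18% and -7.11% of Fam180a, Npr3 and Rnf112. The signs of these 3 low shares rest on few reads. For Fam180a and Rnf112 the P12 and parental values were under 3 reads, and for Npr3 they were 4.06 and 6.98 reads. Line #4 had the highest share of Npr3, 49.6%, and kept 65.8% of Nnmt, 48.5% of Fam180a and 37.4% of Rnf112. Line #3 kept 84.0% of Nnmt, 53.2% of Fam180a, 37.1% of Rnf112 and 29.0% of Npr3. Lines #7 and #9 kept 9.09% and 10.5% of the gain of Npr3, where #7 held 3.03 reads at P12 and 1.99 in parental cells. Rnf112 was at 0 at P12 in both, after resistant levels too low for the share to be measured. The 2 lines differed in Nnmt, with 49.4% in #7 and -1.95% in #9, where P12 and parental values were under 3 reads. They kept 48.2% and 24.8% of Fam180a.

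**Figure D2:**
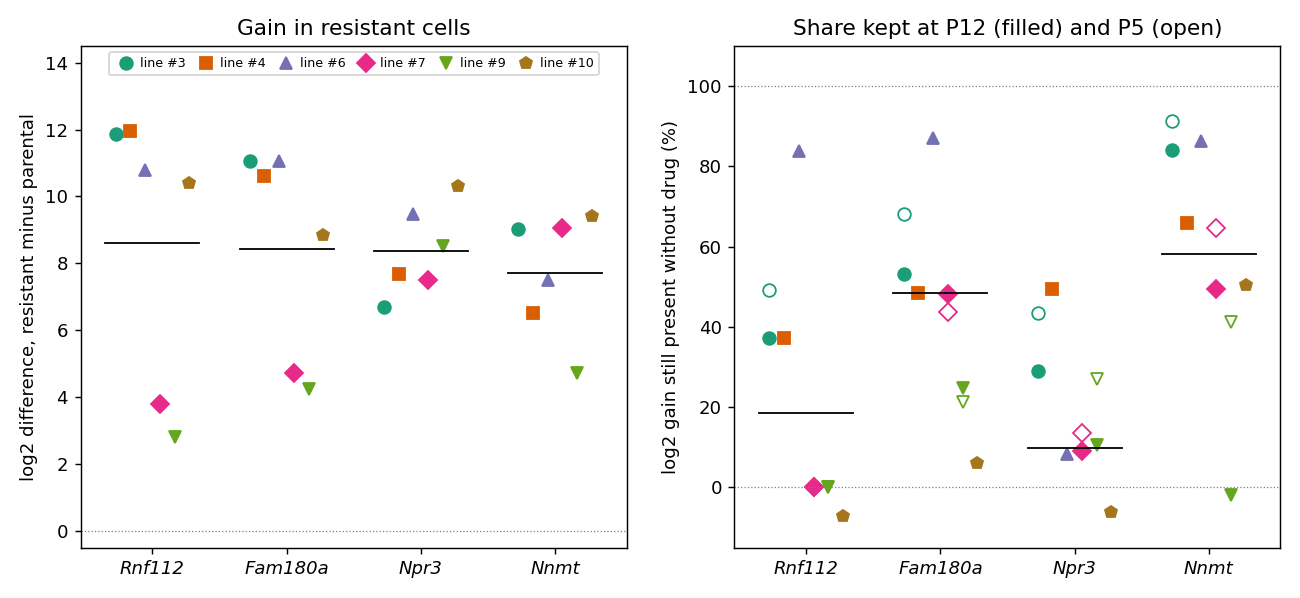
Left, log2 difference of resistant minus parental cells per line, with the mean of 6 lines as a bar. Right, percent of this gain still present at P12 (filled symbols, with the median of 6 lines as a bar) and at P5 (open symbols, lines #3, #7 and #9). At P5 and P12 the symbols of Rnf112 for #7 and #9 coincide at 0%.

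P12 against P5 is the only contrast between states that did not choose the genes. Its test is not independent of that choice, since the fits take their spread from all 21 samples, parental and resistant ones included. With the line as a block the difference itself also depends on those samples, because P5 is missing in some lines. Within line #3, the values of all 4 genes were lower at P12 than at P5, by log2 differences of -1.66 for Fam180a, -1.43 for Rnf112, -0.97 for Npr3 and -0.65 for Nnmt. Npr3 and Nnmt were lower at P12 in 3 of 3 lines, with means of -0.90 ± 0.54 and -1.35 ± 0.69 (SD, n = 3). For Npr3 in #7 the values were 4.02 reads at P5 and 3.03 at P12, too few to give a direction. Fam180a differed by 0.22 in #7 and 0.15 in #9, and Rnf112 was at 0 at both times in these lines. None of the 4 differences passed the test. In the fit of all samples, which sets 6 P12 lines against 3 P5 lines, the log2 difference was 1.04 (SE 2.17) for Rnf112, 0.36 (SE 1.41) for Nnmt, -0.52 (SE 1.67) for Fam180a and -0.88 (SE 1.86) for Npr3, each with a limma adjusted p of 1. When lines were blocked the values were -0.36 (SE 1.70), -0.995 (SE 0.976), -0.33 (SE 1.38) and -1.12 (SE 0.871), each with a limma adjusted p that rounds to 1. Over all 19300 genes limma called 0 in this contrast, with 130 at an unadjusted p under 0.05, and again 0 under the block, with 140.

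Lists of genes that work with each of the 4 were examined next. A call required a limma adjusted p under 0.01 and a change of over 1 on the log2 scale in either direction, which held for 5.3% of all tested genes in resistant against parental cells, for 2.13% in P12 against resistant cells and for 0.114% in P12 against parental cells. When lines were blocked, these shares were 10.5%, 4.52% and 0.523%. In the natriuretic peptide and cGMP pathway, 3 of the 17 tested genes other than Npr3 were called (17.6%), and 7 of 17 (41.2%) when lines were blocked, to be set against 5.3% and 10.5% of all tested genes. Mme, which encodes the peptidase neprilysin that cleaves natriuretic peptides, was at 24.0 to 199 normalized counts in parental and 1702 to 16267 in resistant cells and rose in 6 of 6 lines by 5.89 on the log2 scale (SE 0.85, adjusted p = 0.000198). Prkg2, a cGMP-dependent protein kinase, went the other way. It was at 1793 to 12447 normalized counts in parental and 2.48 to 565 in resistant cells, and fell by 7.49 on the log2 scale in 6 of 6 lines (SE 0.94, adjusted p = 5.43e-05). The calls of Mme and Prkg2 were kept in 13 of 13 alternatives. Furin, a protease that processes peptide precursors, fell by 1.64 on the log2 scale (SE 0.39, adjusted p = 0.00899) and was lower in 5 of 6 lines. Its call was lost without a filter on low counts and without line #3, #4, #6 or #10, with adjusted p up to 0.0536. Without line #9 the list had 5 called genes.

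Of the ligands, Nppb, which encodes brain natriuretic peptide, had a median of 3.95 normalized counts in parental and 28.6 in resistant cells and reached 415 in resistant cells of line #10. Its log2 difference of 3.29 (SE 0.97) did not pass the test (adjusted p = 0.0268), but did with the line as a block (adjusted p = 0.00998). Nppa and Nppc, encoding atrial and C-type natriuretic peptide, were too low to test, with no sample above 1.78 and 2.66 normalized counts, as was Ostn, a ligand of the clearance receptor (highest 4.10). Neither of the other receptors passed the test, with a log2 difference of 1.77 (SE 1.49, adjusted p = 0.469) for Npr1 and 0.21 (SE 0.89, adjusted p = 0.904) for Npr2. Npr1 differed by line in resistant cells, from 16.4 to 3976 normalized counts. Gucy1a3, a subunit of soluble guanylyl cyclase, Prkg1, another cGMP-dependent kinase, and Pde3b, a phosphodiesterase, were called under the block but not without it, with log2 differences of 4.85, 4.12 and 1.43 and unblocked adjusted p of 0.0491, 0.017 and 0.0216.

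After withdrawal, 2 of the 17 genes were called in P12 against resistant cells (11.8%, against 2.13% of all tested genes). When lines were blocked it was 3 of 17 (17.6%, against 4.52%). Mme was lower (-6.50, SE 0.85, adjusted p = 0.000153) and Prkg2 higher (7.87, SE 0.94, adjusted p = 4.93e-05), and under the block Prkg1 was called as well (-4.92, adjusted p = 0.00637). In P12 against parental cells limma called 0 of 17, with and without the block, where 0.523% and 0.114% of all tested genes were called.

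Around Nnmt, 3 of 43 tested genes of nicotinamide, NAD and methyl group metabolism were called (6.98%, near the share over all genes). Cd38 and Ido1 were lower in resistant cells, as was Hnmt, whose direction the filter on low counts favoured. Cd38, which breaks down NAD at the cell surface, was at 187 to 1848 normalized counts in parental and 2.37 to 32.3 in resistant cells, and fell by 5.06 on the log2 scale in 6 of 6 lines (SE 0.66, adjusted p = 8.66e-05). It was higher again in P12 cells by 5.92 (SE 0.66, adjusted p = 2.33e-05), at 334 to 1852 normalized counts. Ido1, an enzyme at the start of tryptophan breakdown toward NAD, fell by 3.84 on the log2 scale (SE 0.75, adjusted p = 0.00219) from at most 57.0 normalized counts. Hnmt, which uses S-adenosylmethionine to methylate histamine, was at 0 in all resistant samples and at most 48.6 normalized counts in parental ones (adjusted p = 0.00603). It passed the filter through its parental samples only, so its call adds nothing to the count over the list, and without line #3, #6 or #7 it was no longer tested. Without line #10 only Cd38 of these 3 kept its call, Hnmt also lost it without line #4 or with a pseudocount of 8, and without line #9 the list had 5 called genes.

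None of the enzymes named next, which supply or clear the substrates of Nnmt, was called. The log2 difference was -0.30 (SE 0.30, adjusted p = 0.542) for Nampt, which salvages nicotinamide, and -0.003 (SE 0.17, adjusted p = 0.995) for Mat2a, which makes S-adenosylmethionine. Mat2b, which encodes the regulatory subunit of that enzyme, was higher in 6 of 6 lines by 0.91 (SE 0.17, adjusted p = 0.00137), a difference under the limit of 1 set for a call. For Ahcy, which hydrolyses the by-product of methyl transfer, it was -0.99 (SE 0.42, adjusted p = 0.12), with lower values in 6 of 6 lines, and when lines were blocked the adjusted p was 0.00168, again with a difference under 1. Of 8 listed regulator genes, among them C/EBP and STAT transcription factors, 1 was called (12.5%, against 5.3% of all tested genes). This was Cebpa, which was lower (-2.57, SE 0.62, adjusted p = 0.00905), a call lost under the block (adjusted p = 0.0113). When lines were blocked the list again had 1 called gene (12.5%, near the 10.5% of all tested genes). Cebpa also lost its call without a filter on low counts and without line #3, #4, #6, #7 or #10, each left out in turn, with adjusted p up to 0.0459.

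**Figure D3:**
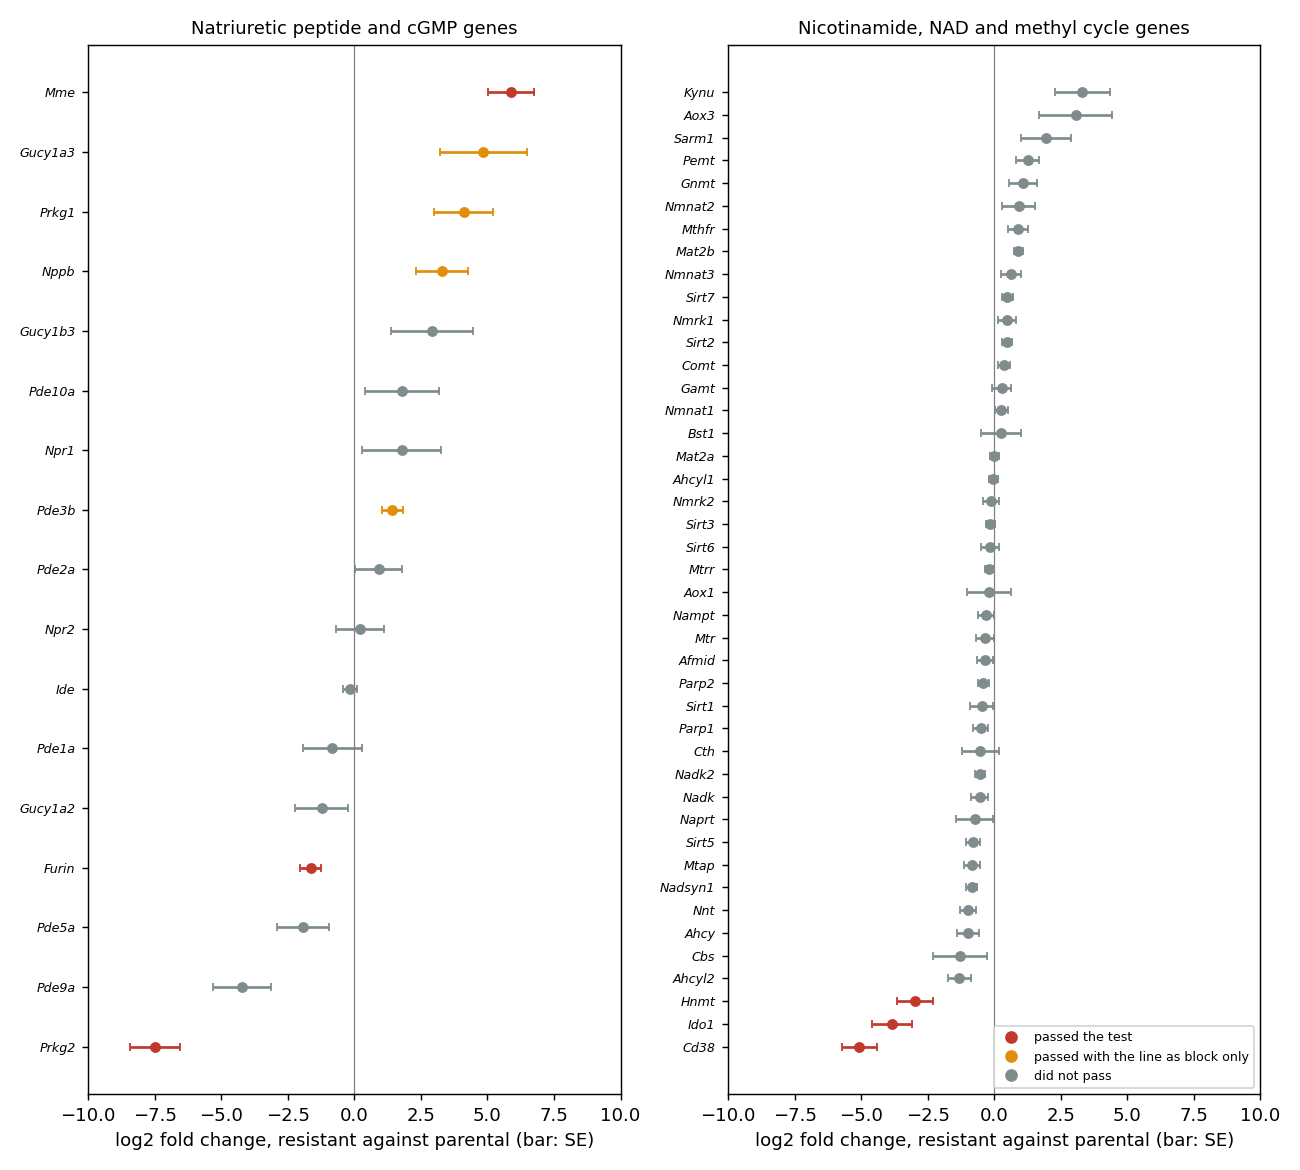
Log2 fold change (resistant against parental, SE as bars) of the 17 tested natriuretic peptide and cGMP genes and the 43 tested nicotinamide, NAD and methyl cycle genes, without Npr3 and Nnmt. Mme and Prkg2 lie at 5.89 and -7.49, and the 3 called genes on the right all lie below 0. Of these, Hnmt passed the filter on low counts through its parental samples only.

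Among 15 large GTPases related to Rnf112 (atlastins, guanylate-binding proteins and dynamin-type GTPases), 2 were called (13.3%), to be set against 5.3% of all tested genes. When lines were blocked the list again had 2 called genes (13.3%), near the 10.5% of all tested genes. Gbp2, an interferon-inducible guanylate-binding protein, rose by 4.23 on the log2 scale (SE 0.89, adjusted p = 0.00366) and was higher in 5 of 6 lines. Dnm3, a dynamin, fell by 1.73 on the log2 scale (SE 0.36, adjusted p = 0.00336) in 6 of 6 lines. Both calls were sensitive to the lines included: without line #3, #4, #6 or #7 the list had 0 called genes by limma, without #10 it had 1 and without #9 it had 4. Fam180b, the named relative of Fam180a, was not among the genes analysed here.

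The nearest genes on the chromosome were compared with the 4 genes. Slc13a4, a sulfate transporter gene, lies 4537 bases from Fam180a on the same strand, beyond its 3′ end. It was at 1.51 to 11.0 normalized counts in parental and 18.8 to 122 in resistant cells, and rose in 6 of 6 lines by 3.24 on the log2 scale (SE 0.52, adjusted p = 0.000471), a call kept in 12 of 12 alternatives. Its P12 values ranged from 6.54 to 33.5 normalized counts, and the highest was in line #6, as for Fam180a. P12 against resistant cells, the log2 difference of Slc13a4 was -2.22 (SE 0.52, adjusted p = 0.0139), which passed when lines were blocked (adjusted p = 0.00936). Zbtb16, which encodes the transcription factor PLZF, lies 49144 bases upstream of Nnmt on the same strand and rose by 3.02 on the log2 scale (SE 0.70, adjusted p = 0.00683), higher in 5 of 6 lines. Its level was low, at 0 to 7.60 normalized counts in parental, 5.57 to 125 in resistant and 0.952 to 5.64 in P12 cells. It thus passed the filter on low counts mainly through its resistant samples, and its call is not independent of that filter. The call of Zbtb16 was lost in 6 of 12 alternatives, among them the fits without line #3, #4, #9 or #10, with adjusted p up to 0.0498. In P12 against resistant cells it differed by -2.84 (SE 0.70, adjusted p = 0.0185, and 0.00413 when blocked). Mfap4, 31300 bases from Rnf112 on the other strand, was at 0 in the resistant cells of lines #7 and #10 and did not pass (2.61, SE 1.177, adjusted p = 0.144), nor did Tars, 440231 bases from Npr3 (0.60, SE 0.28, adjusted p = 0.168). Gm12271, 1700065J11Rik, 1700047G03Rik and Gm23653, the nearest genes on the remaining sides, were too low to test.

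**Figure D4:**
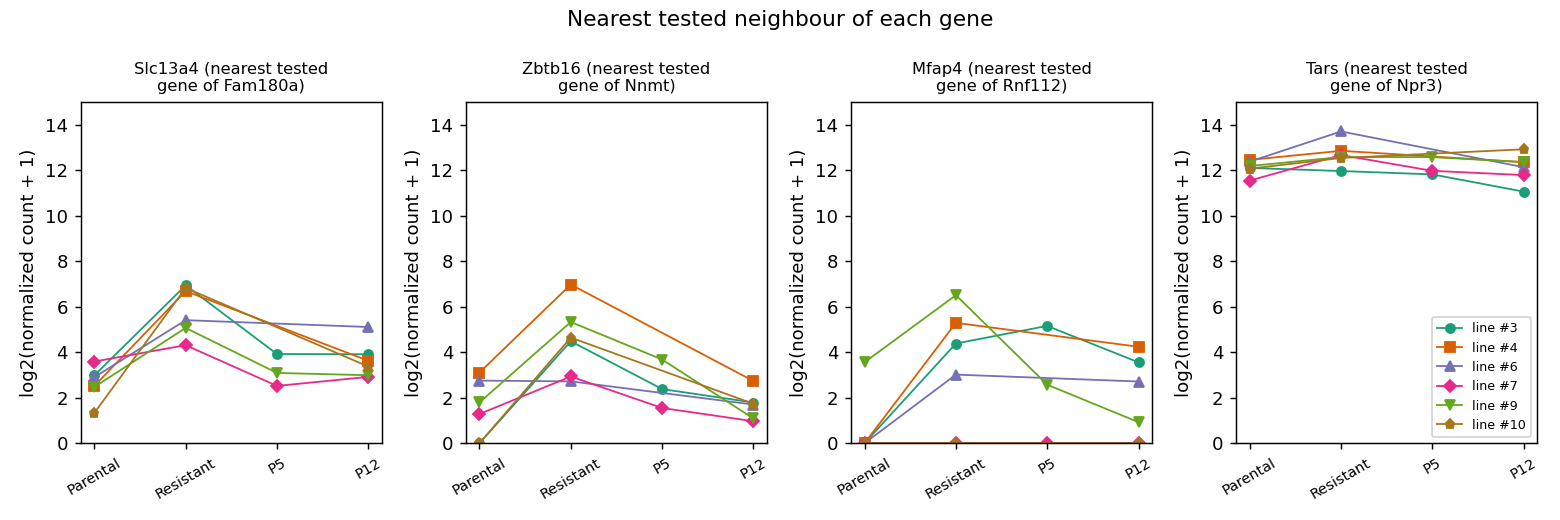
Levels as log2(normalized count + 1) of the nearest tested gene to each of the 4 genes, by state and with 1 coloured line per cell line. Slc13a4 is higher in resistant than in parental cells in 6 of 6 lines, Zbtb16 and Tars in 5 and Mfap4 in 4.

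Genes with a similar course over the 21 samples were ranked by Pearson correlation of log2 values after the mean of each line was removed. These correlations describe samples that share lines and the large step between states. Fam180a was the closest of the tested genes to Rnf112, and Rnf112 the closest to Fam180a (r = 0.976). The next were Sema3d (0.96) and Natd1 (0.95) for Rnf112, and Mpdz (0.975) and Cilp2 (0.962) for Fam180a. For Npr3 they were 1190002N15Rik (0.958), Chrm1 (0.956) and Cep126 (0.947), and for Nnmt Sun2 (0.958), Afap1l2 (0.954) and Med31 (0.951). Natd1 lies on the same chromosome as Rnf112 at a distance of 533692 bases, and no other of these genes shared a chromosome with its match. Between the 4 genes the correlation was lowest for Npr3 and Nnmt (r = 0.793).

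In the order of log2 fold change, the genes directly beside the 4 were Igfbp2 (9.82, SE 1.42), an extracellular binding protein of insulin-like growth factors, just above Rnf112, and Daam2 (8.34, SE 1.17), a formin, just below Npr3. Sox8 (7.74, SE 0.80) and Lctl (7.63, SE 1.02) stood on either side of Nnmt at 7.71. The 4 genes differed from these neighbours by less than their SE, so the positions in the order are not separated.

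Sequencing depth, estimated from the spacing of low values, was 24.2 to 42.5 M reads per sample, and 3 reads corresponded to 2.32 to 4.08 normalized counts, a floor that covers counting error only. A list of 7 ERK target genes, which report MEK activity, summed to 19479 to 26104 normalized counts in parental, 1211 to 7731 in resistant and 22358 to 36925 in P12 cells. Of the epithelial markers, Epcam was at 0 in 20 of 21 samples, whereas Krt8 and Krt19 were present in all, and the sum of 7 was lowest in line #9 in every state, with medians of 216714 normalized counts in parental, 59426 in resistant and 52683 in P12 cells. Endothelial markers summed to a median of 65.8 in parental, 389 in resistant and 95.1 in P12 cells. The medians of the immune markers were 173, 263 and 194. The sum of 7 fibroblast markers was 100 to 11393 normalized counts in parental, 1943 to 512541 in resistant and 226 to 149491 in P12 cells, although Lum, one of the 7, had a median of 0 in resistant cells. Among resistant cells this sum was highest in line #9, where Npr3 was highest but Rnf112 and Nnmt were lowest, and lowest in line #7, where Fam180a was lowest. The part of these markers in the levels of the 4 genes was not tested, and in bulk RNA more cells of a type and more RNA per cell cannot be told apart.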

How the data were processed

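Poly(A) RNA of 21 cultures was sequenced for the authors by the provider CeGaT with a stranded mRNA kit. The study's methods name a HiSeq or a NovaSeq system without saying which samples ran on which, and the fits held no term for the instrument. Per the labels and the study's methods, reads were trimmed with Skewer, quantified with salmon 0.12 against mm10, summed to genes with TXImport and normalized with DESeq2 1.18. The deposited values are therefore a signal, normalized counts per gene that are not whole numbers, and methods for raw counts were not run. No column was left out. On low values, 73.3% to 82.1% lay within 0.1 of a multiple of 1 step, taken as 1 read, which gave the depth. Log2 values used a pseudocount of 1, and genes at 10 or more in at least 3 samples were tested with limma 3.58.1 (R 4.3.3, eBayes with a trend, Benjamini-Hochberg over 19300 genes) in 1 fit of 4 states without a covariate. The 4 genes, the gene lists and the rule for named genes (the 4, their neighbours in rank and on the chromosome, called list genes, the natriuretic ligands and receptors and the 3 most similar genes each) were chosen with earlier results of these data known. Each state of a line was 1 culture, so lines are the replicates, and numbers pair samples because they name the same cell line. After removal of state means, same-line samples correlated at 0.159 to 0.352 between parental and resistant, 0.337 to 0.52 between resistant and P12 and 0.00819 to 0.51 between parental and P12 cells. Between P5 and P12 cells the correlation was higher, at 0.732 to 0.806 over 3 lines. The list names Gucy1a1 and Gucy1b1 were matched as Gucy1a3 and Gucy1b3. Counting by strand was not given in the sources used here. The fit was tested on simulated data. Alternatives were pseudocounts of 0.5 and 8, no filter, a mean of at least 100, upper quartile rescaling, the line as a block, an adjusted p below 0.05 and each line left out. Python 3.11.15, numpy 2.4.6, pandas 2.3.3 and matplotlib 3.10.9 were used. 1 allele of the genotype and 1 listed gene are not reported here.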

Additional observations from a re-analysis of the deposited data

Results flagged for a closer look

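Values were examined for samples far from the other 5 of their state on the log2 scale (Dixon's test at 95%), over 23 named genes in 66 groups. This gave 9 samples, against about 1 in 20 groups by chance. In 8 of them the other 5 samples were at 0, so that few reads set the distance. Rnf112 was at 0.669 normalized counts in parental cells of line #10. Nppc was at 2.66 in parental #9, at 1.04 in resistant #3 and at 1.74 in P12 #3. Ostn was at 0.908 in parental #4 and at 4.10 in P12 #7, and Hnmt at 1.52 in P12 #3. Mfap4, the neighbour of Rnf112, was at 10.8 normalized counts in parental #9. Cd38 was at 1848 normalized counts in parental line #7, against 187 to 425 in the other 5 lines.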

How the results depend on the processing

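The 4 genes' differences of resistant or P12 cells from parental and of P12 from resistant cells kept their sign and moved by less than 1 SD over lines under all 108 alternatives. The gains moved most with a pseudocount of 8, to 7.36 for Npr3, 7.14 for Fam180a, 5.977 for Rnf112 and 5.976 for Nnmt. The SD over lines was then 1.85 for Npr3 and 1.37 for Nnmt. The order of the 4 gains and which gain was most even thus depended on the pseudocount. The median shares kept moved by less than 1 SD under all 36, but for Rnf112 that SD was 34.7 percentage points and the median depended on single lines. Resistant minus parental ranged over the left-out lines from 7.93 to 9.77 for Rnf112, 7.89 to 9.26 for Fam180a, 7.97 to 8.70 for Npr3 and 7.37 to 8.30 for Nnmt. The median share of Rnf112, 18.6%, was 0% without #3, #4 or #6 and 37.1% without #7, #9 or #10. P12 minus P5 changed sign with the replicate block, which pairs states of a line, for Rnf112 (-0.36) and Nnmt (-0.995). Leaving out lines gave -0.17 to 2.70 for Rnf112, -1.37 to 0.58 for Fam180a, -1.94 to 0.49 for Npr3 and -0.28 to 1.22 for Nnmt, and P5 exists for 3 lines only, so the line composition changes with it. Calls over all genes were 1023, 412 and 22 for resistant against parental, P12 against resistant and P12 against parental, 2017, 872 and 101 with the replicate block, 2190, 947 and 116 at an adjusted p below 0.05, and 450 to 1237, 132 to 467 and 4 to 68 with a line left out. A mean of at least 100 gave 5 for P12 against parental. Of the lists, natriuretic genes had 3 calls, 7 with the block, 8 at an adjusted p below 0.05 and 2 to 5 with a line left out. Nicotinamide and methyl genes had 3, with 5 at an adjusted p below 0.05, 1 at a mean of at least 100 and 1 to 5 with a line left out. GTPases had 2, with 1 at a mean of at least 100 and 0 to 4 with a line left out. The cause of these changes was not tested. Of the other results given here, the block changed no call beyond those named beside them. Below 2.32 to 4.08 normalized counts, 3 reads, levels cannot be told from 0.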
